A study of Mus musculus with 6 samples.

Results

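The IL-20 cytokine family and its receptors were followed through 9 genes: the ligands Il19, Il20, Il24, Il22 and Il10, and the receptor chains Il20ra, Il20rb, Il22ra1 and Il10rb. They were found by the gene name that the scanner files give each probe, which yielded 13 of 41174 probes. Of the 9 genes, 7 had a probe with Cy5 well above background on 3 or more arrays and entered the fit over 20565 genes, while Il20 and Il22 did not.

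The mutants were K5-CreER;Rosa26Sox2/Sox2 mice (3 arrays) and the controls were K5-CreER mice (3 arrays), both on a mixture of the 129/Sv and C57/BL6 strains. Both groups carry the tamoxifen-inducible Cre, which the keratin 5 promoter drives in basal cells of stratified epithelia, and both received 2 doses of tamoxifen at 7 weeks of age. Only the mutants carry Sox2, a transcription factor gene of stem and foregut cells, in the Rosa26 locus. RNA came from epithelial sheets of the forestomach, the squamous front compartment of the mouse stomach, and the animals are labelled as 12 weeks old. Each array compared a sample in Cy5 with the same reference RNA, a pool of 11 mouse cell lines, in Cy3, and nothing states whether each array held 1 animal or a pool.

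IL-19, IL-20 and IL-24 are cytokines of the IL-10 superfamily that epithelial and myeloid cells release, and all of them bind the receptor made of IL-20RA and IL-20RB. IL-20 and IL-24 also bind IL-22RA1 paired with IL-20RB, while IL-22 uses IL-22RA1 with IL-10RB, and IL-10 uses its own IL-10RA chain with IL-10RB. The receptors signal through JAK kinases to STAT3. In skin, IL-20, IL-22 and IL-24 act on keratinocytes, in which they raise antimicrobial peptides and hold back terminal differentiation.

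Some arrays stood apart from the others of their group. Control 3 lay on a slide of its own, was scanned on another day with another software version, and had 62.5% of probes well above background in Cy5, against 73.0% to 76.1% on the other 5 arrays. The median log2 ratio of the glandular stomach markers was 2.22 to 3.99 in the mutants, 0.46 in control 3 and 4.04 and 4.28 in the other controls. Mutants 2 and 3 were close to each other (scaled median absolute deviation between their log2 ratios 0.104), as were controls 1 and 2 (0.16). All other pairs were at 0.325 to 0.731 by this measure. The Il19 Cy5 signals of mutants 2 and 3 differed (6467 and 12784), so their files were not copies of each other. A single probe cannot show whether they came from separate RNA. Whether the arrays of either pair shared RNA was not tested, and all were kept as separate samples. Where control 3 and mutant 1 are left out, these pairs are all that remains, and 7726 genes passed in the ratio. In the authors' deposited table, the column of mutant 1 correlated best with the scanner file of mutant 3 (Pearson r = 0.963 across probes, against 0.865 with its own) and the column of mutant 3 with the scanner file of mutant 1 (0.957 against 0.868). All values below come from the scanner files and name mutants 1 and 3 as those files are labelled. Which of the 2 sources has these 2 labels exchanged was not settled, and both samples are mutants.

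The labels could be checked only in part. All 8 squamous epithelium markers (keratins 4, 5, 13, 14 and 15 among them) were well above background on all 6 arrays, with a median log2 ratio of 2.83 to 3.56 in mutants and 3.56 to 4.56 in controls. The Sox2 probe begins at base 1846 of its transcript, in sequence that is past the coding part, and so does not read a transgene made of the coding part. Its log2 ratio averaged 5.82 ± 0.14 in mutants and 6.24 ± 0.15 in controls (SD, n = 3 each). Gt(ROSA)26Sor, the transcript of the targeted locus, averaged -2.65 ± 0.08 in mutants and 1.05 ± 0.23 in controls (SD, n = 3 each), a difference of -3.69 (limma, adjusted p = 0.00116), so that every array labelled mutant was below every control.

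The ligand genes Il24, Il20, Il19 and Il10 lie in this order on chromosome 1. The probes for Il19, Il20 and one of the probes for Il24 match spliced transcripts, because their 60 bases spread over 1791, 1066 and 485 bases of the genome. They are shown because they define which RNA the Il19 result counts and which RNAs of the same cluster gave none or little. Coordinates are mm9, per the file headers, on the minus strand: chr1:132829819-132831609 for Il19, chr1:132806293-132807358 for Il20 and chr1:132779972-132780456 for Il24. All letters are in lower case, as no part is singled out.
Il19 probe: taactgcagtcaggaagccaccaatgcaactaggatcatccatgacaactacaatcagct
Il20 probe: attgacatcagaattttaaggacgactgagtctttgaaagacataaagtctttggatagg
Il24 probe: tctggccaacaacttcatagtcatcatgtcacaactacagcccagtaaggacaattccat

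Il19 and Il20ra were the members that differed in the log2 ratio, and the RefSeq table used here held promoter entries for 6 of the 9 members. The 250 bases before the start are shown for these 2 genes from RefSeq, on GRCm38.p6, at chr1:130940116-130940365 on the minus strand for Il19 and at chr10:19712337-19712586 on the plus strand for Il20ra. Capitals mark 3 motifs searched on both strands: the SOX core ACAAT (or ATTGT), the STAT element TTCNNNGAA and the AP-1 element TGANTCA. No matches overlapped.
Il19 promoter: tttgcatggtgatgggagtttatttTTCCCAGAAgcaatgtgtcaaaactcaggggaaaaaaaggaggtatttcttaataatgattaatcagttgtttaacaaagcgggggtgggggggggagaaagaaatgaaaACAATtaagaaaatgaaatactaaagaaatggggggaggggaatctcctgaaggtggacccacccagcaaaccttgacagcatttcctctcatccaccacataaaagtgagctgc
Il20ra promoter: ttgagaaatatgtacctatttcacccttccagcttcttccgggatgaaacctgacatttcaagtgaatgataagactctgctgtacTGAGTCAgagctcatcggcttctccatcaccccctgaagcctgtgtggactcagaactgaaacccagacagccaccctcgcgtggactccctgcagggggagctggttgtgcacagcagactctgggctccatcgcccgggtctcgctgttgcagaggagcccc
The Il19 window held 1 STAT element, with its first base at -225 from the start, and 1 SOX core at -115. The Il20ra window held 1 AP-1 element at -164 and neither of the other motifs. Of 32817 promoter windows of this length, 27.7% held the SOX core, 7.01% the STAT element and 6.75% the AP-1 element, so a SOX core alone is common. The windows of Il20 and Il20rb held none of the 3 motifs, that of Il22ra1 held 1 AP-1 element, and that of Il22 held 2 SOX cores. A match is a run of letters and was not tested as a binding site.

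Il19 was well above background in all mutants and in none of the controls. IL-19 is the ligand that binds only the receptor of IL-20RA with IL-20RB. The Cy5 spot signal of its probe was 89173, 6467 and 12784 in mutants 1, 2 and 3, against 72.3, 65.7 and 51.3 in controls 1, 2 and 3, and none of the control spots was well above background. The groups did not overlap, and the mutants themselves spread over 13.8-fold, with mutant 1 far above mutants 2 and 3. In the sample channel the mutant mean exceeded that of the controls by at least 174-fold, taking as the controls' level the dimmest probe that was well above background on each array (mean log2 Cy5 13.95 ± 2.01 in mutants and 6.19 ± 0.16 in controls, SD, n = 3 each; difference 7.76 ± 0.95 SE; limma, adjusted p = 0.025). Without mutant 1 this bound was 79.6-fold, and without mutant 2 it was 302-fold. The call in the sample channel was lost without mutant 2, mutant 3, control 1 or control 2 (adjusted p = 0.0798 to 0.127), with slide as a random block (adjusted p = 0.919) and with the close pairs averaged (adjusted p = 0.395).

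The reference channel of the Il19 probe moved with the sample channel. The Cy3 spot signal was 5919, 446 and 873 in mutants, against 79.9, 74.9 and 69.7 in controls, although the reference RNA is the same on every array. Mutant 1 was again the highest and mutant 2 the lowest, and every mutant was above every control. Cy3 amounted to 6.59%, 6.15% and 6.48% of Cy5 in mutants 1, 2 and 3, so the share was nearly the same while Cy3 spread over 13.3-fold. The Cy3 difference was 3.49 ± 0.97 SE on the log2 scale, which missed the threshold (limma, adjusted p = 0.505, 95% interval 1.11 to 5.88). Without mutant 1 and control 3 it was 2.34 ± 0.28 SE (adjusted p = 0.0162).

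Because Cy3 entered the ratio, the Il19 ratio was nearly constant among mutants. The log2 ratio was 3.72, 3.75 and 3.72 in mutants, against -0.42, -0.57 and -0.64 in controls. The mutants stood together and far above the controls, with none of the spread seen in either channel alone. The difference of 4.27 ± 0.11 SE had the smallest p of all genes in the fit (limma, adjusted p = 0.000232) and was rank 9 by size of the rise. Its SE and p do not measure the spread of Il19 signal between mutants, which cancelled in the ratio. In the sample channel the SE was 0.95 and the rank by p was 125. This ratio difference is not a fold of Il19 RNA, since the controls' Cy5 was at background and the mutants' Cy3 was raised. It was 4.22 ± 0.09 SE among the 5 arrays of the first scan day (adjusted p = 0.000515), 4.29 ± 0.19 SE with slide as a random block (adjusted p = 0.00358), and 4.29 ± 0.21 SE with the close pairs averaged, where it missed the threshold (adjusted p = 0.0834).

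**Figure D1:**
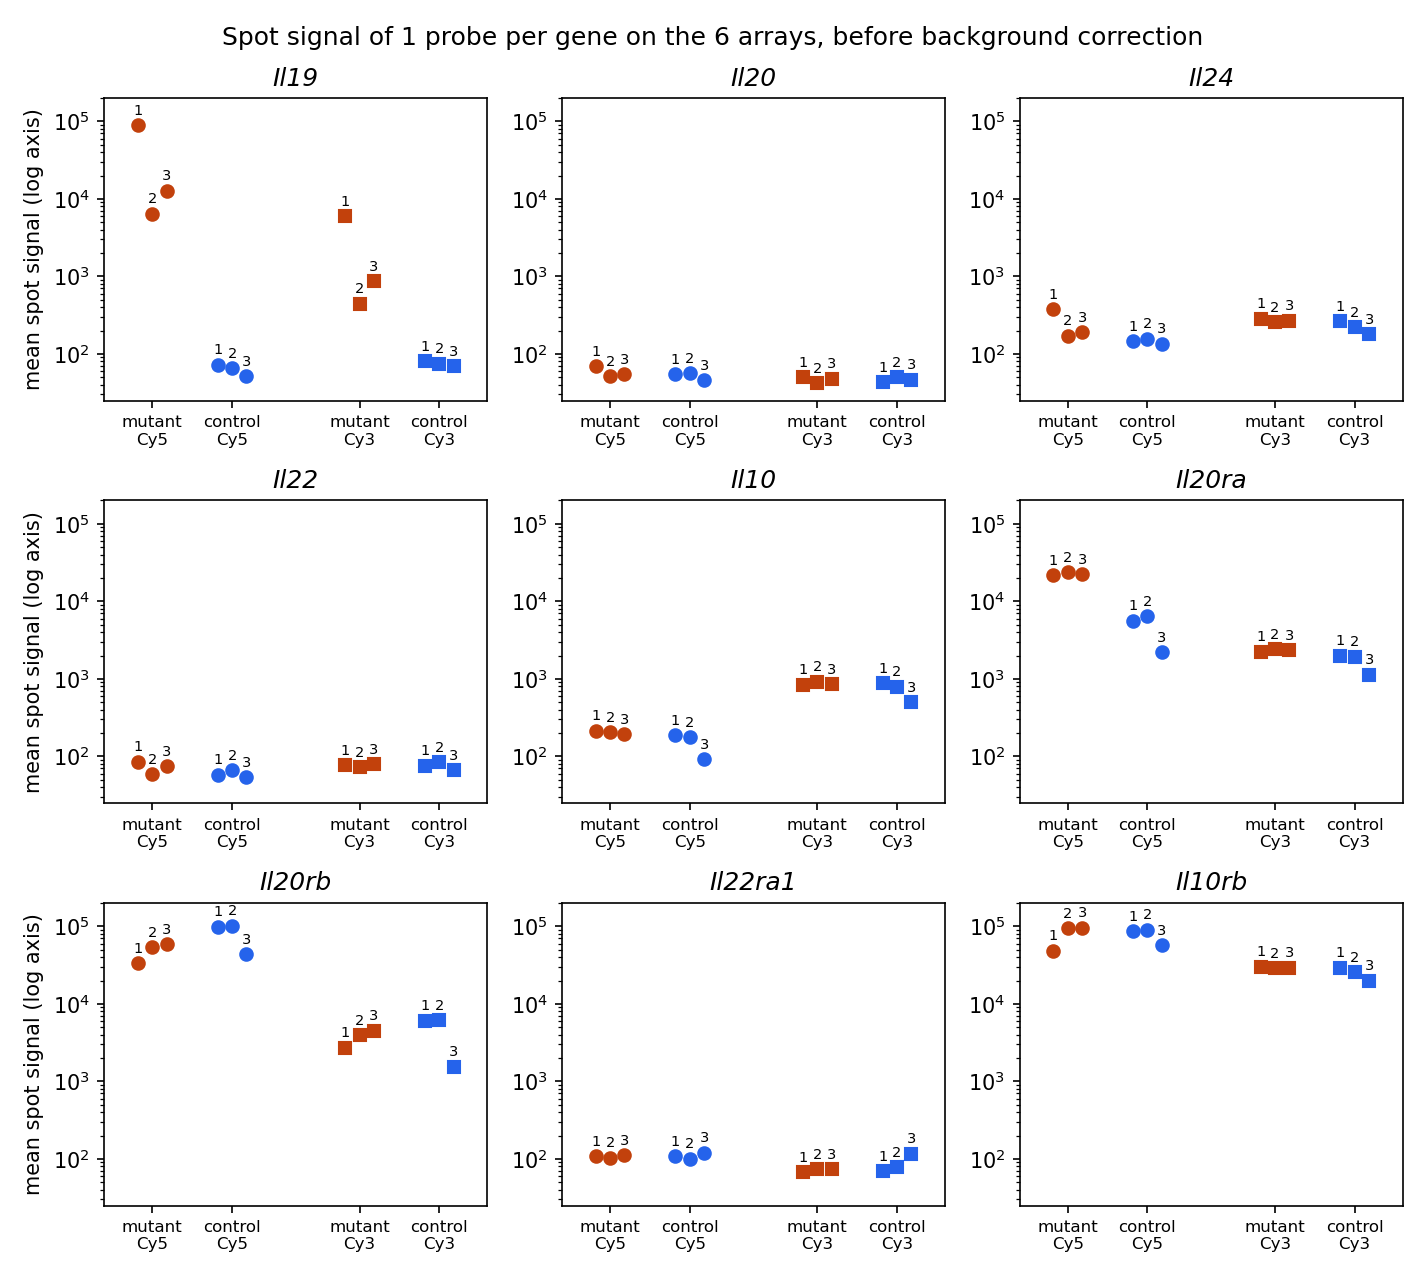
Mean spot signal on a log axis, before background correction, of 1 probe for each of the 9 genes. Circles are the sample channel Cy5 and squares the reference channel Cy3, in mutants (orange) and controls (blue), with the replicate number beside each point. Il19 is high in both channels of the mutants, most in mutant 1, and Il20ra is high in Cy5 of all mutants, while Il20 and Il22 lie near background on every array.

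The other ligands of the cluster lay near background or differed little between the groups. Il20, whose product binds both receptors of the family, had Cy5 signals of 69.6, 51.1 and 54.6 in mutants, against 54.7, 56.2 and 45.4 in controls. None of these spots was well above background in either channel, so the arrays give only a bound for Il20 and no fold. The spliced Il24 probe was well above background in Cy5 only in mutant 1, at 118, against 75.2 and 82.1 in mutants 2 and 3 and 60.1, 78.9 and 46.5 in controls. Its log2 ratio was -0.41 ± 0.37 in mutants and -1.39 ± 0.91 in controls (SD, n = 3 each), a difference of 0.97 ± 0.45 SE. This probe missed the filter and was not tested. Its Cy3 signal was 413 in control 2, against 70.5 to 122 on the other arrays. The other Il24 probe (chr1:132778780-132778839, mm9, minus strand) was above background on all arrays, with 375, 171 and 189 in mutants and 146, 156 and 135 in controls. In these spot signals mutant 1 again stood out and the other mutants were only slightly above the controls. After normalization, log2 Cy5 of this probe was 8.52, 7.33 and 7.46 in mutants and 7.25, 7.20 and 8.07 in controls, which overlap. Its log2 ratio was 0.31, -0.72 and -0.66 in mutants and -0.83, -0.78 and -0.06 in controls, which overlap. IL-24 acts through the same receptors as IL-20. The Il24 probe above background on all arrays had a ratio difference of 0.19 ± 0.35 SE (limma, adjusted p = 0.758, 95% interval -0.64 to 1.03), or -0.14 without mutant 1.

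Il22 and Il10 complete the ligands. IL-22 is made mainly by lymphoid cells. Both Il22 probes stayed below the background limit in Cy5 on every array, at 58.5 to 85.2 in mutants and 53.5 to 66.3 in controls for one probe and at 61.1 to 84.8 in mutants and 43.0 to 66.9 in controls for the other. Mice of some strains carry a near-identical copy of Il22, which these probes may not tell apart. Il10, the anti-inflammatory founder of the superfamily, was dim, with Cy5 of 213, 204 and 194 in mutants and 187, 178 and 92.2 in controls. It was dimmer in the samples than in the reference RNA, with a log2 ratio of -2.09 ± 0.12 in mutants and -2.10 ± 0.21 in controls (SD, n = 3 each). The groups overlapped, and the 95% interval of the difference ran from -0.36 to 0.37 (limma, adjusted p = 0.99).

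Of the receptor chains, Il20ra rose. IL-20RA is a chain of the receptor that IL-19, IL-20 and IL-24 share. Its probe (chr10:19479702-19479761, mm9, plus strand) had Cy5 signals of 21693, 23578 and 22356 in mutants, against 5656, 6417 and 2202 in controls. The mutants lay close together and all were above all controls, with control 3 the lowest. Cy3 was 2247, 2425 and 2325 in mutants and 2001, 1931 and 1129 in controls. The log2 ratio was 3.19, 3.14 and 3.08 in mutants, against 1.55, 1.51 and 1.52 in controls, so control 3 no longer stood apart from the other controls. The ratio was 3.06-fold higher in mutants (log2 difference 1.61 ± 0.10 SE; limma, adjusted p = 0.00373) and the sample channel 3.34-fold higher (1.74 ± 0.13 SE; adjusted p = 0.00796). The call in the sample channel held in 6 of 13 alternatives and was lost without mutant 2, mutant 3, control 1 or control 2 (adjusted p = 0.0677 to 0.0798), with slide as a random block (adjusted p = 0.376) and with the close pairs averaged (adjusted p = 0.395). The Cy3 difference was 0.13 ± 0.07 SE (adjusted p = 0.656). The ratio difference was 1.58 ± 0.07 SE without control 3 and mutant 1, and it missed the threshold with slide as a random block (adjusted p = 0.0828) and with the close pairs averaged (adjusted p = 0.257).

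Il20rb, which encodes the chain that pairs with IL-20RA or IL-22RA1, went the other way in the sample channel. Its brighter probe (chr9:100358255-100358314, mm9, minus strand) had Cy5 signals of 33376, 54179 and 58637 in mutants, against 98516, 102329 and 43556 in controls. Controls 1 and 2 were above all mutants, while control 3, the dimmer array, was between mutants 1 and 2 before normalization. After normalization, log2 Cy5 was 14.82, 15.35 and 15.38 in mutants and 16.33, 16.33 and 16.61 in controls, which did not overlap. Sample channel signal in mutants was 2.36-fold below that in controls (log2 difference -1.24 ± 0.20 SE; limma, adjusted p = 0.0481), a call that held in 4 of 13 alternatives. The log2 ratio was 3.51, 3.56 and 3.43 in mutants, against 3.84, 3.63 and 5.26 in controls, so that control 3 set most of the difference. That difference was -0.74 ± 0.42 SE (adjusted p = 0.325), and -0.24 ± 0.11 SE without control 3 (adjusted p = 0.213). The Cy3 signal of this probe was 2731, 3965 and 4495 in mutants and 6026, 6101 and 1543 in controls, which put it in the order of Cy5 on the 5 arrays of the first scan day. The dimmer Il20rb probe (chr9:100383659-100383718, mm9, minus strand) had log2 ratios of 2.09, 2.42 and 2.32 in mutants and 2.96, 2.93 and 3.59 in controls, also without overlap. A further probe that is described as Il20rb but named for a transcript was not above background on any array.

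Il22ra1 and Il10rb differed less. Il22ra1, the chain for IL-22 and for the second receptor of IL-20 and IL-24, was dim, with Cy5 of 109, 103 and 111 in mutants and 108, 100 and 120 in controls. The 6 values are close to each other, and the ratio difference was -0.01 ± 0.15 SE (limma, adjusted p = 0.968, 95% interval -0.38 to 0.35). Il10rb, the chain shared by the IL-10 and IL-22 receptors, was among the bright probes, with Cy5 of 48319, 94550 and 96360 in mutants, against 87046, 90568 and 57232 in controls. Mutant 1 had the lowest value and the other mutants the highest, so the groups overlapped in these signals. After normalization, log2 Cy5 was 15.28, 16.06 and 15.99 in mutants and 16.10, 16.13 and 16.90 in controls, which did not overlap. That difference, -0.60 ± 0.31 SE, missed the threshold (limma, adjusted p = 0.34). The log2 ratio was 0.41, 1.28 and 1.24 in mutants and 1.24, 1.29 and 1.86 in controls, a difference of -0.49 ± 0.29 SE (adjusted p = 0.352). Its second probe, over 10 kb away, had log2 ratios of 0.51, 0.54 and 0.52 in mutants and 0.68, 1.08 and 1.02 in controls.

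**Figure D2:**
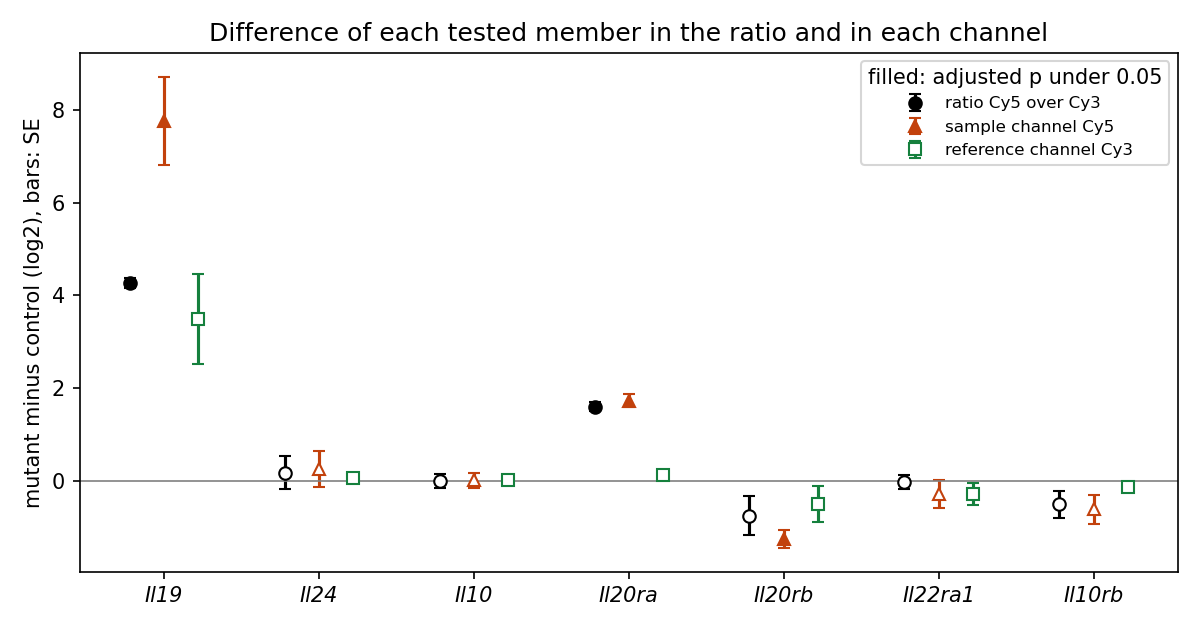
Mutant minus control difference on the log2 scale, with its SE, of the 7 members that entered the fit, in the ratio (black circles), the sample channel (orange triangles) and the reference channel (green squares). Filled symbols passed an adjusted p of 0.05. Il19 is high in all 3 measures, Il20ra in the ratio and the sample channel, and Il20rb is below 0 in all 3 but passed in the sample channel alone.

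Counted over the family, 2 of 7 tested members passed the threshold in the ratio (Il19 and Il20ra, both higher), where 2.83% of all genes did (581 of 20565, with 287 higher and 294 lower). In the sample channel 3 of 7 passed (Il19 and Il20ra higher, Il20rb lower), against 1.68% of all genes (345). In the reference channel none of 7 passed in limma, where Il19 alone had an unadjusted p under 0.05, against 0.136% of all genes (28). In the ratio, Il19, Il20ra and Il20rb did not overlap between groups, as did 37.9% of all genes, so a lack of overlap was common on these arrays. Il19 entered the fit through the mutant arrays alone, since no control was above background, and the dim Il20 and Il22 were left out, so the shares of tested members are no measure of the family. The members were not chosen from the measured values, but earlier results of these arrays were known when they were listed.

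In the normalized sample channel, mutant 1 was the highest of all arrays for Il19, Il24 and Il20ra and the lowest for Il20rb and Il10rb. For Il20ra the mutants were close, with log2 Cy5 of 14.22, 14.18 and 14.05 in mutants 1, 2 and 3. Over the 6 arrays, log2 Cy5 of Il19 correlated with that of Il20ra at 0.96, of Il20rb at -0.99, of Il10rb at -0.77 and of Il24 at 0.47 (Pearson). In the ratio these values were 1.00 for Il20ra and -0.60 for Il20rb. Each rests on 6 arrays in 2 separated groups, and the points share the arrays and their normalization, so these are descriptions.

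The genes whose log2 ratio was most like that of Il19 over the 6 arrays were H2bc18 (a histone gene, Pearson r = 0.999), Il20ra (0.999), Uox (urate oxidase, 0.999), the transcript ENSMUST00000100870 (0.998) and Dffb (a nuclease subunit of apoptosis, 0.998). Of 20479 genes, 418 had a correlation above 0.95. Uox was also like Il19 in that both channels moved, with differences of 9.18 for Cy5 and 3.92 for Cy3 (limma, adjusted p = 0.00435 and 0.0618). Over all 20565 genes, the differences in the sample and reference channels correlated at 0.54. Of the 5 probes that were off in every control and over 1000 in Cy5 in every mutant, Cy3 was 0.712% to 6.59% of Cy5 in the mutants (median 3.43%), and Il19 had the highest mean share. The part of label carry-over between channels in the Il19 result was not tested.

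The neighbourhood of Il19 was examined over 500 kb on each side. None of the 19 tested neighbours that are no members passed the threshold in either direction in limma, where 2.83% of all genes did. An unadjusted p under 0.05 was found for 5 of them and for 4900 of all 20565 genes. The median ratio difference of the neighbours was -0.22, against 0.01 over all genes. Without control 3 and mutant 1, where 7726 of 20554 genes passed, 2 neighbours passed as higher, Fcmr and Pigr, and 6 as lower. Fcmr, the Fc receptor for IgM, 53.4 kb from the Il19 probe, came closest, at 2.36 ± 0.98 in mutants and 0.04 ± 0.25 in controls (log2 ratio, SD, n = 3 each; adjusted p = 0.0621), with all controls below the background limit in Cy5 and the mutants at least 5.92-fold higher in Cy5. Pigr, the epithelial transporter of polymeric IgA, 82.6 kb away, was at 4.23 ± 0.12 in mutants and 2.43 ± 1.75 in controls (adjusted p = 0.236). Cd55, a complement inhibitor, was at 3.13 ± 0.62 in mutants and 4.17 ± 0.16 in controls (adjusted p = 0.126). The tested Il24 probe and the probes of Il20 and Il10 lie 51.9, 23.9 and 90.3 kb from Il19 and differed little. The spliced Il24 probe, 50.5 kb away and near background, differed by 0.97 ± 0.45 SE, with a high Cy3 spot in control 2.

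**Figure D3:**
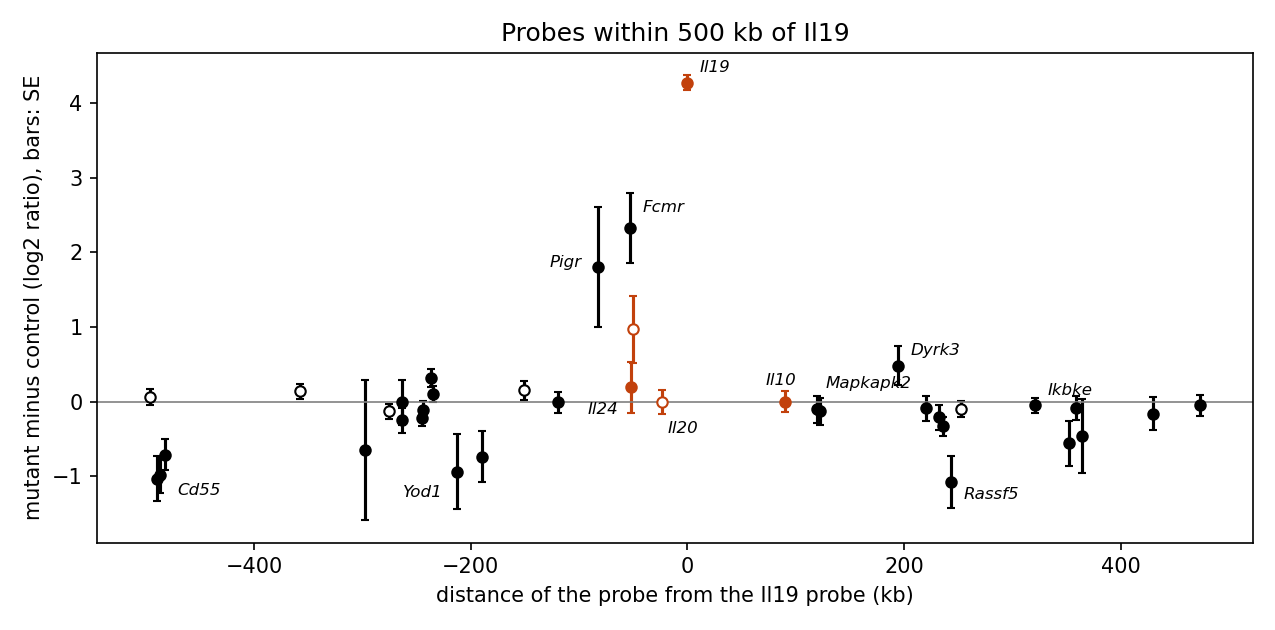
Mutant minus control difference of the log2 ratio, with its SE, of every probe within 500 kb of the Il19 probe, by distance in kb. Orange points are Il19, Il20, Il24 and Il10, black points are other genes, and open points were above background on fewer than 3 arrays. Il19 stands at 4.27, and on one side Fcmr at 2.32 and Pigr at 1.80 lie above the others, with wide errors.

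The other class II cytokine receptors and ligands showed 1 change in the ratio among 8 tested genes, where 2.83% of all genes passed. Il10ra, which encodes the ligand-binding chain for IL-10, was lower in mutants, at 1.17 ± 0.03 against 1.86 ± 0.04 in controls (log2 ratio, SD, n = 3 each; difference -0.69; limma, adjusted p = 0.0309). Ifngr1, a chain of the interferon gamma receptor, was at 0.63 ± 0.12 in mutants and -0.37 ± 0.45 in controls (adjusted p = 0.0852). Ifnlr1, the interferon lambda receptor chain, differed by -0.77 (adjusted p = 0.118) and F3, tissue factor, by 1.03 (adjusted p = 0.161). The median over the 8 genes was 0.07. Il10ra no longer passed when mutant 2, mutant 3, control 1 or control 2 was left out, with slide as a random block (adjusted p = 0.431), or with processed signals, median centring or scale normalization.

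Of the 20 genes of JAK-STAT signalling, none passed the threshold in either direction in limma, where 2.83% of all genes did. An unadjusted p under 0.05 was found for 7 of the 20 and for 4900 of all 20565 genes. The list's median difference was 0.02, close to the 0.01 of all genes. In the setting without control 3 and mutant 1, 7726 of 20554 genes passed. Of the 20 listed genes 6 then passed as higher and 4 as lower, with Socs3 among the higher and Cish among the lower. Among those with the smallest p were Cish, a STAT-induced inhibitor, at 1.61 ± 0.60 in mutants and 3.07 ± 0.36 in controls (log2 ratio, SD, n = 3 each; adjusted p = 0.0802), and Bcl3, a cofactor of NF-kappaB that IL-6-type cytokines induce, at 0.40 ± 0.85 in mutants and -1.52 ± 0.56 in controls (adjusted p = 0.0912). Pias1 and Pias3, inhibitors of STAT proteins, differed by -0.52 and 0.42 (adjusted p = 0.115 and 0.143). Socs3, the feedback inhibitor that STAT3 induces, differed by 0.53 (adjusted p = 0.167) and Stat3 itself by 0.32 (adjusted p = 0.301). Both are outside the naming rule and were picked for their place downstream of the receptors.

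Among 12 tested upstream cytokines and mediators, 1 rose in the ratio, where 2.83% of all genes passed in either direction. Il1b, which encodes a cytokine known to induce IL-19 and IL-20 in keratinocytes, was 8.38-fold higher in mutants, at 2.08 ± 0.91 against -0.99 ± 0.24 in controls (log2 ratio, SD, n = 3 each; limma, adjusted p = 0.0282). Nfkbiz, a mediator of IL-17 and IL-36 responses, differed by 1.38 (adjusted p = 0.0698) and Il23a by 1.36 (adjusted p = 0.15), with the Il23a controls below the background limit. The IL-36 genes, named Il1f6, Il1f8 and Il1f9 in RefSeq, had values below 0; that of Il1f6 was -0.81 (adjusted p = 0.209). The list's median was 0.53. Il1b no longer passed when mutant 2, mutant 3, control 1 or control 2 was left out or with slide as a random block (adjusted p = 0.523). Without control 3 and mutant 1, where 7726 of 20554 genes passed, 5 genes of the list passed as higher and 1 as lower.

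Of 28 tested keratinocyte genes known from skin to answer IL-20, IL-22 or IL-24, 5 rose in the ratio and none fell, with a median of 0.82. The list pools genes that these cytokines raise with terminal differentiation genes that they hold back, so its median has no single direction to be read against. Of the latter, named outside the naming rule, Lor differed by -1.41, Krt1 by -1.05, Flg by -0.68 and Krt10 by -0.41 (limma, adjusted p = 0.282 to 0.483). Of all 28, 20 were above 0. Of all genes, 2.83% passed in the ratio in either direction. S100a8, a subunit of calprotectin that neutrophils also make, was 231-fold higher in mutants, at 6.04 ± 0.32 against -1.82 ± 0.93 in controls (log2 ratio, SD, n = 3 each; limma, adjusted p = 0.0034). Reg3b, an antimicrobial lectin, was below the background limit in all controls and at least 74.6-fold higher in Cy5 of the mutants (ratio, adjusted p = 0.00488). It entered the fit through the mutant arrays alone, so the count of 5 that includes it is no measure of the list. S100a7a, the psoriasin relative, was 3.23-fold higher (adjusted p = 0.0118), Il1rl2, the receptor of IL-36, was 2.12-fold higher (adjusted p = 0.0142) and Defb3, a beta-defensin, was 22.4-fold higher (adjusted p = 0.0318), named as the last of the 5 though outside the naming rule. In the sample channel, where 1.68% of all genes passed, 8 of 28 rose, the same 5 and 3 more, Defb14, Krt6b and S100a9. These 3, named after their values were seen, had reference channel differences as large as those in the sample channel. The sample and reference differences were 6.38 and 6.02 for Krt6b, 2.18 and 2.44 for Defb14, and 2.23 and 2.20 for S100a9, with adjusted p in the reference channel of 0.0052, 0.0422 and 0.276. Their ratios therefore showed little, with 0.36 for Krt6b and 0.04 for S100a9. When mutant 2, mutant 3, control 1 or control 2 was left out, 2 genes still passed in the ratio, S100a8 and Reg3b, and none did with the close pairs averaged. S100a7a and Defb3 also missed the threshold with processed signals (limma, adjusted p = 0.119 and 0.0877) and in the deposited table (0.0631 and 0.0602). Defb3 missed it without mutant 1 as well (adjusted p = 0.0744). With slide as a random block S100a8 alone passed (adjusted p = 0.0383), and the adjusted p of Reg3b, S100a7a, Il1rl2 and Defb3 was 0.134 to 0.256. By contrast, 14 passed as higher and 6 as lower without control 3 and mutant 1, where 7726 of 20554 genes passed. The list has members that IL-17 and IL-1 induce too, and the part of the IL-20 family in their rise was not tested.

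Markers of other cell types moved with the group. For comparison, 2.83% of all genes passed in the ratio in either direction, and 4900 of 20565 had an unadjusted p under 0.05. All 10 macrophage and dendritic cell markers were above 0 in their difference and 2 rose, Cd68 (2.81-fold, limma, adjusted p = 0.0166) and Csf1r (1.68-fold, adjusted p = 0.0488), while the list's median log2 ratio was -0.17 to 0.06 in mutants and -1.56 to -0.89 in controls. Their summed log2 Cy5 was 16.73 to 17.19 in mutants and 14.87 to 16.29 in controls. All 7 tested neutrophil markers were above 0 and 2 rose, S100a8 and Retnlg, with a list median of 1.33 to 4.47 in mutants and -0.20 to -0.02 in controls, and summed log2 Cy5 of 17.60 to 18.80 in mutants and 10.69 to 11.87 in controls. Elane, a neutrophil granule enzyme, did not reach the background limit for testing. Retnlg, Ngp and Csf3r were above that limit in all mutants and in no control, so they entered the fit through the mutant arrays alone. The count of 7 above 0 is therefore no measure of the list. S100a8, which is also in the keratinocyte list, had the largest sample channel difference of the neutrophil markers (9.07). With slide as a random block neither Cd68 (adjusted p = 0.308) nor Csf1r (adjusted p = 0.579) nor Retnlg (adjusted p = 0.154) passed, and S100a8 did. The calls of Cd68 and Csf1r were also lost without mutant 2, mutant 3, control 1 or control 2 (adjusted p = 0.083 to 0.18), and that of Csf1r without mutant 1 (adjusted p = 0.0684). Csf1r missed the threshold too with processed signals, median centring, scale normalization or the deposited table (limma, adjusted p = 0.057 to 0.119). Retnlg missed it with processed signals (adjusted p = 0.0523). With the close pairs averaged no marker of either list passed. Of 10 tested T and innate lymphoid cell markers none passed in limma and 1 had an unadjusted p under 0.05 (summed log2 Cy5 14.31 to 14.83 in mutants and 13.82 to 14.08 in controls), nor did any of 8 fibroblast and vessel markers or of 10 glandular stomach markers (0 at an unadjusted p under 0.05 in both), or any of the 8 squamous markers (4 at an unadjusted p under 0.05). In the sign of the ratio difference, 8 of 8 fibroblast and vessel markers were above 0 (median 0.73, against 0.80 for the macrophage list), and 0 of 8 squamous markers were (median -0.57). In the sample channel 4 of 8 squamous markers were above 0 (median -0.06), and the list's median in the reference channel was 0.51. There 1 squamous marker, Dsg3, rose in Cy5 (1.88; limma, adjusted p = 0.016), with a reference channel difference of 1.94. Without control 3 and mutant 1, 7 macrophage, 5 neutrophil and 3 T and innate lymphoid cell markers and 1 fibroblast marker passed as higher, and 6 squamous and 2 glandular markers as lower. In that setting 7726 of 20554 genes passed. In bulk RNA, more cells of a type and more RNA per cell cannot be told apart. The part of these cells in the Il19 and Il20ra results was not tested.

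All mutants lay on 1 slide and the controls on 2 others, so no slide held both groups, and every group difference is also a difference between slides. With slide as a random block (correlation 0.60), Il19 was the 1 member that passed in the ratio, where the spread of its Cy5 cancelled. No member passed in the sample channel (limma). Under each alternative for the ratio, Il19 was above 0 (4.15 to 7.70, past the threshold in 19 of 20), as was Il20ra (1.54 to 1.80, in 18 of 20), and Il20rb was below 0 (-1.22 to -0.24, in 1 of 20).

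**Figure D4:**
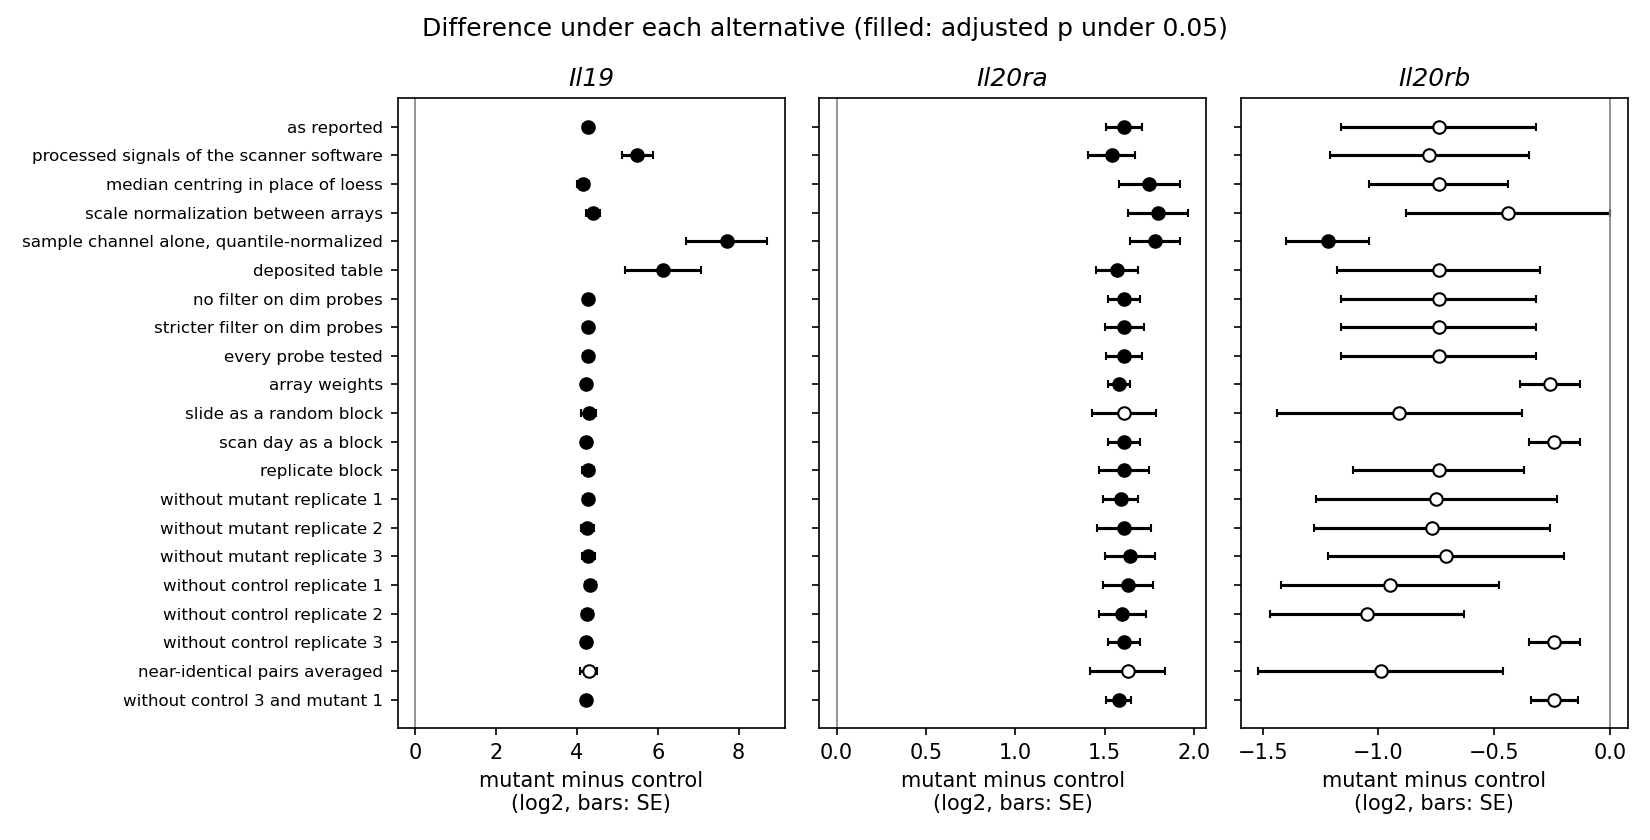
Mutant minus control difference on the log2 scale, with its SE, of Il19, Il20ra and Il20rb as reported (top) and under 20 alternatives, each panel with its own scale. Among the alternatives, the quantile-normalized sample channel is Cy5 alone and not a ratio. Filled points passed an adjusted p of 0.05. Il19 and Il20ra stay above 0 and Il20rb below 0 in every alternative shown.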

How the data were processed

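RNA of 3 mutant and 3 control samples was measured on 2-colour Agilent arrays, with the sample in Cy5 and the reference RNA in Cy3 on every array and no dye swap. The deposited scanner files hold spot intensities per the file headers, which name mm9 (NCBI37) as build and software 10.5.1.1 (10.7.3.1 for control 3), while the submitters' processing notes name Agilent Feature Extraction 9.1. The authors' deposited table holds log2 ratios, with a normalization that the labels and headers do not state, and served as an alternative only. The scanner software's processed signals were another alternative, and the log10 ratios it wrote, per the file headers, were not used further.

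Mean signals were background-corrected (normexp, offset 50) and loess-normalized within arrays in limma 3.58.1 (R 4.3.3). Control and outlier spots were left out and the spots of a probe averaged. Aquantile normalization gave log2 values for each channel. Probes well above background in Cy5 on at least 3 arrays were kept, and the one with the highest mean Cy5 stood for a gene. Symbols were updated through RefSeq for 32721 probes. Mutants and controls were compared with lmFit and eBayes (two-sided, 4 residual degrees of freedom) and Benjamini-Hochberg adjustment over all genes, with a threshold of 0.05, separately for the ratio and each channel. The fit was tested on simulated data. The 3 arrays per group limit the precision, and p-values measure only the spread between these samples.

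The members and the gene lists were chosen with earlier results of these data known. Named were all members and their probes, up to 4 genes with the smallest p of each pathway list, neighbours of Il19, Sox2 and Gt(ROSA)26Sor, and the 5 genes most like Il19, besides those said to be chosen otherwise and the marker lists.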

Additional observations from a re-analysis of the deposited data

How the results depend on the processing

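The number of genes that passed in the ratio (581) moved with most settings: 326 with the scanner software's processed signals, 265 with median centring, 304 in the quantile-normalized sample channel, 8578 with array weights (control 3 at 0.084), 4 with slide as a random block, 1483 with scan day as a block, and 34 to 1483 when single arrays were left out. It was 0 with the close pairs averaged (2190 at an unadjusted p under 0.05) and 7726 without control 3 and mutant 1, both chosen after seeing the data. Members that passed in the ratio (2) were 1 with slide as a random block and 0 with the pairs averaged. Members that passed in the sample channel (3) were 0 with slide as a random block, 0 with the pairs averaged, and 0 to 3 with single arrays left out. In the reference channel (0) they were 2, Il19 and Il20rb, without control 3 and mutant 1. No difference past the threshold changed sign. With the replicate block 137 genes passed in the ratio and 1 member, Il19, in the sample channel, and Il1b, Il10ra, Il1rl2, Cd68 and Csf1r missed the threshold; same-numbered arrays correlated at 0.005, 0.019 and 0.126 in their deviations, so the numbers were not taken as pairs. The cause of these shifts was not tested. Signals near background, as for Il20, Il22, Il22ra1, Il10 and the Il19 controls, limit what the arrays can show.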

Other observations

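Values in the authors' deposited table bear on 2 members whose mutant 1 stands apart. For Il24 the deposited log2 ratio was -0.88 for mutant 1 and 0.38 for mutant 3, while the scanner files gave 0.31 for mutant 1 and -0.66 for mutant 3. For Il10rb the deposited log2 ratio was 1.18 for mutant 1 and 0.38 for mutant 3, while the scanner files gave 0.41 for mutant 1 and 1.24 for mutant 3. The deposited value of Il19 in control 3 was -4.63, against -0.92 and -1.41 in the other controls, for a spot that was not well above background.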
